A study of Mus musculus with 6 samples.

Results

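Arginase 1, transforming growth factor beta 1 (TGF-β1) and 8 further genes of the anti-inflammatory side of the macrophage response were followed on mouse expression arrays: Arg1, Tgfb1, the TGF-β receptors Tgfbr1 and Tgfbr2, Il10 and its receptor chain Il10ra, the interleukin-1 receptor antagonist Il1rn, the interleukin-4 receptor chain Il4ra, and the surface receptors Mrc1 and Msr1. The 10 genes were chosen by name, with earlier results of these data known. Every probe bearing one of the symbols ARG1, TGFB1, TGFBR1, TGFBR2, IL10, IL10RA, IL1RN, IL4RA, MRC1 or MSR1, in either case, was taken, and all 10 had a probe, of 17742 named genes on the array. Msr1 had 2 probes and the others 1 each, so that 11 of 26423 probes are described. No filter on dim probes was applied, and all 11 were tested.

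The cells were BV2, an immortal line of mouse microglia, which is a single line and stands only in part for microglia of the brain. The 6 arrays comprised 2 of cells without adenine (control), 2 of cells given a lower dose of adenine and 2 of cells given a higher dose, each for 1 h. Sample titles and the treatment protocol state the doses as 20 and 80 µM and the sample characteristics as 80 and 250 µM, so only their order is used. Per the study's design text, the RNA of untreated cells came from 2 separate cultures and that of treated cells from cultures of their own, without the number of cultures behind each dose. Where both arrays of a dose share a culture, the p-values measure only the spread between arrays, which may be technical. With 2 arrays in a group, precision is low throughout.

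Macrophages and microglia exposed to interleukin-4, interleukin-13, interleukin-10 or TGF-β take on states that dampen inflammation and favour repair. Arginase 1 hydrolyses arginine to ornithine and urea and so competes with inducible nitric oxide synthase for its substrate. TGF-β1 is secreted in a latent complex, and once released it binds the type II receptor, which recruits and phosphorylates the type I receptor, which in turn phosphorylates SMAD proteins. In the brain, TGF-β signalling is needed for the mature microglial state. Interleukin-10 acts through STAT3, interleukin-4 through STAT6, and the interleukin-1 receptor antagonist occupies the interleukin-1 receptor without activating it.

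The RefSeq promoter table (GRCm38.p6) held 6 of the 10 genes (Mrc1, Il1rn, Tgfbr1, Tgfb1, Il4ra and Tgfbr2). The 250 bases before the annotated start are shown for Tgfb1, the only one of these 6 whose probe passed the test at the higher dose, and for Tgfbr2, the receptor of its ligand, whose values ran the other way. Capitals mark GC boxes (GGGCGG on either strand) and CCAAT boxes (CCAAT on either strand). The Tgfb1 window lies at chr7:25686752-25687001 on the + strand, and the Tgfbr2 window at chr9:116175364-116175613 on the - strand.
Tgfb1: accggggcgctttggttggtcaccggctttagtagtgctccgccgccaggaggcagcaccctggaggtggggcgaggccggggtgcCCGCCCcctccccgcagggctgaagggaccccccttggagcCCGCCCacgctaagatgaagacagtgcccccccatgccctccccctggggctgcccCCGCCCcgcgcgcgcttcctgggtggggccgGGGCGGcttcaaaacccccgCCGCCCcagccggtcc
Tgfbr2: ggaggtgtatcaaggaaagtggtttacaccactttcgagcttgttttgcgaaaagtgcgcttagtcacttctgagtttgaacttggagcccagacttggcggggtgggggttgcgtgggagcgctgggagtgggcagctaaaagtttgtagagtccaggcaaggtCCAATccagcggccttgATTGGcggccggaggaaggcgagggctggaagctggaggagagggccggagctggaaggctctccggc
The Tgfb1 window held 5 GC boxes and 0 CCAAT boxes and had a G+C content of 75.2%. The Tgfbr2 window held 0 GC boxes and 2 CCAAT boxes and had a G+C content of 58.4%. Of all 32851 windows of this length in the table, 32.7% held a GC box and 33.8% a CCAAT box, and the median G+C content was 52.4%. Neither window held a TATA box (TATAAA, in 12.4% of all windows) or an AP-1 site (TGANTCA, in 6.75%). These matches are letters in a sequence and no measure of binding.

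Array medians of the deposited intensities ranged from 125 to 170 units, and the values were quantile-normalized before the tests. Over probes above the median intensity, the pair of higher-dose arrays had a Pearson's r of 0.9894, while either of them against a control or lower-dose array gave 0.9287 to 0.9406. Of 17 measured markers of microglia and macrophages, 16 lay above the median probe, and their summed normalized intensity was 177495 to 182371 units in control, 180544 to 181114 at the lower dose and 220772 to 246252 at the higher dose. That sum is carried by the brightest probes: 4 of the 17 rose and 1 fell at the higher dose against control (29.4%, beside 10.6% of all probes). The median log2 change of the 17 was −0.13 (−0.05 between the doses). Of 45 measured markers of 6 other cell types, 0 passed in limma at the higher dose against control, where 10.6% of all probes did. An unadjusted limma p under 0.05 was found there for 12 of the 45 and for 29.1% of all probes. Between the doses 3 passed, Cd3e higher and Kdr and Emcn lower, beside 13.7% of all probes. Above the median probe lay 1 of 7 astrocyte, 3 of 7 neuron and 7 of 8 oligodendrocyte markers. So did 0 of 8 fibroblast, 4 of 8 endothelial and 3 of 7 lymphocyte markers. When only the 13211 probes above the median were tested, 5524 passed against control, so the marker shares are not matched for brightness. The summed intensity of the 7 lymphocyte markers was 972 to 1073 units in control, 833 to 914 at the lower dose and 1198 to 1298 at the higher dose, the order of groups seen for Arg1 and Tgfb1. None of these 7 was listed at 0, and the lowest was Ms4a1 with 6 to 13 units as deposited, beside array medians of 125 to 170. The endothelial sum ran the other way, with 3828 to 3864 units in control, 4434 to 4912.5 at the lower dose and 3285 to 3609 at the higher dose. The astrocyte, neuron, oligodendrocyte and fibroblast sums overlapped between groups or took another order. The part of these markers in the results was not tested.

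At the higher dose, Arg1 and Tgfb1 rose, each a little over 2-fold against control, and both stood further above the lower dose than above control. None of the other 8 genes passed the test in any of the 3 comparisons, which were each dose against control and the doses against each other. Tgfbr2, the receptor that binds TGF-β1, had lower values on both higher-dose arrays than on the other 4, without passing. A probe or gene is said to have passed, risen or fallen where the limma p, adjusted over all 26423 probes with the Benjamini-Hochberg method, was under 0.05. The 3 comparisons share arrays and are not independent of each other. In RNA from whole cultures, fewer cells expressing a gene and less RNA per cell cannot be told apart.

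Arg1, the arginine-hydrolysing enzyme, had normalized intensities of 659.5 and 696 units in control, 539 and 447 at the lower dose and 1382 and 1684 at the higher dose. The groups did not overlap on any pair of arrays, with the lower dose lowest and the higher dose highest. Against control, Arg1 rose 2.25-fold at the higher dose (log2 change 1.17 ± 0.19, SE, n = 2 per group, limma adjusted p = 0.0276, higher on 2 of 2 arrays). Against the lower dose it was 3.11-fold higher (log2 1.64 ± 0.19, adjusted p = 0.018). The lower dose stood at log2 −0.46 ± 0.19 relative to control (adjusted p = 0.764), and that difference did not pass. A change as high or higher was seen for 1264 of the 26423 probes at the higher dose against control, and for 333 between the doses.

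Tgfb1, the secreted ligand, had normalized intensities of 757 and 899.7 units in control, 489.7 and 390.4 at the lower dose and 1621 and 2118 at the higher dose. Its order of groups was that of Arg1, again without overlap. Tgfb1 rose 2.24-fold at the higher dose (log2 1.17 ± 0.22, limma adjusted p = 0.0386, higher on 2 of 2 arrays). The difference between the doses was 4.24-fold (log2 2.08 ± 0.22, adjusted p = 0.018), and 104 probes showed one as large in that direction. At the lower dose the log2 value was −0.92 ± 0.22, with an unadjusted limma p of 0.00853 and an adjusted p of 0.764. At an unadjusted p under 0.05, 1681 probes (6.36%) differed at the lower dose.

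**Figure D1:**
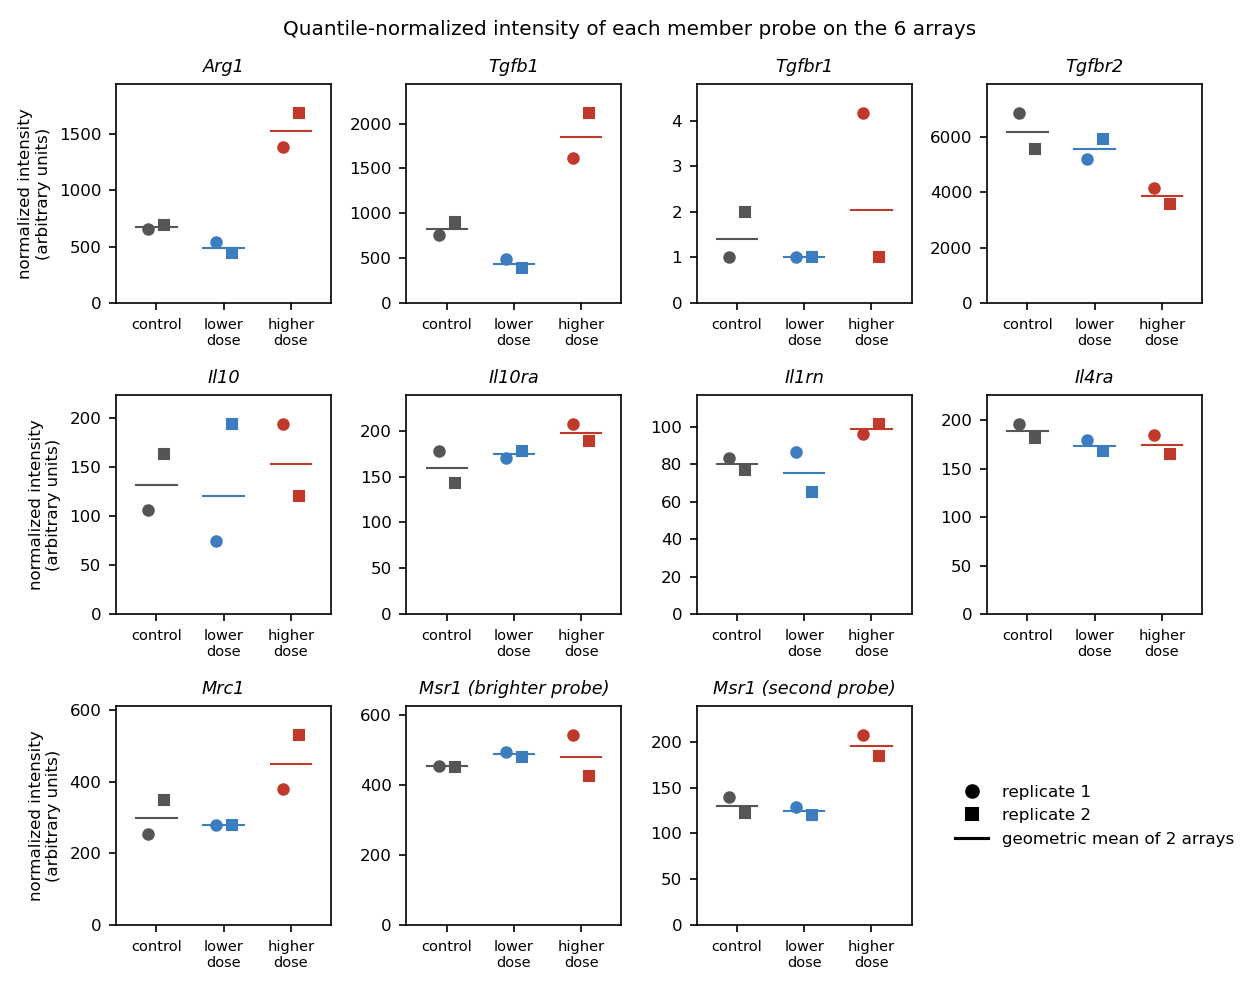
Quantile-normalized intensity (arbitrary units, linear axis from 0) of each of the 11 probes on the 6 arrays, with circles for replicate 1, squares for replicate 2 and a line at the geometric mean of each group. Arg1 and Tgfb1 lie lowest at the lower dose and highest at the higher dose without overlap, Tgfbr2 is lowest at the higher dose, and the Il10 arrays of each group lie far apart.

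The calls for both genes were near the threshold in the reported fit and moved with the setting. Among probes above the median intensity the limma adjusted p was 0.000447 for Arg1 and 0.000831 for Tgfb1. With log2(value + 16) it was 0.00444 and 0.00728, and with a trended prior 0.00363 and 0.00672. More of all probes passed under these settings too, 5524, 4764 and 5000. Without 1 array, Arg1 kept its call against control when a lower-dose array was left out (adjusted p = 0.0473 and 0.0474) and lost it when a control or higher-dose array was left out (highest adjusted p = 0.14), while its log2 change stayed between 1.03 and 1.32. Tgfb1 lost its call in each of the 6 such fits (adjusted p 0.0594 to 0.169), with log2 changes of 0.97 to 1.36. It also lost it on values as deposited (log2 1.08, adjusted p = 0.0526), after scaling to equal medians (1.00, adjusted p = 0.0701) and in a fit without the lower-dose arrays (1.17, adjusted p = 0.0591), settings under which Arg1 kept its call. A limma fit with the replicate number as a block ended both calls against control (Arg1 adjusted p = 0.0616, Tgfb1 adjusted p = 0.0745). In that fit 11 of all probes passed against control, beside 2803 in the reported fit. The labels name no shared source behind the replicate numbers. Between the doses, both genes lost their calls in each fit without 1 array (adjusted p 0.0517 to 0.115) and with only the dose arrays (adjusted p = 0.0515). In those fits the counts over all probes fell too, from 3629 to between 6 and 26 without 1 array and to 7 with only the dose arrays.

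**Figure D2:**
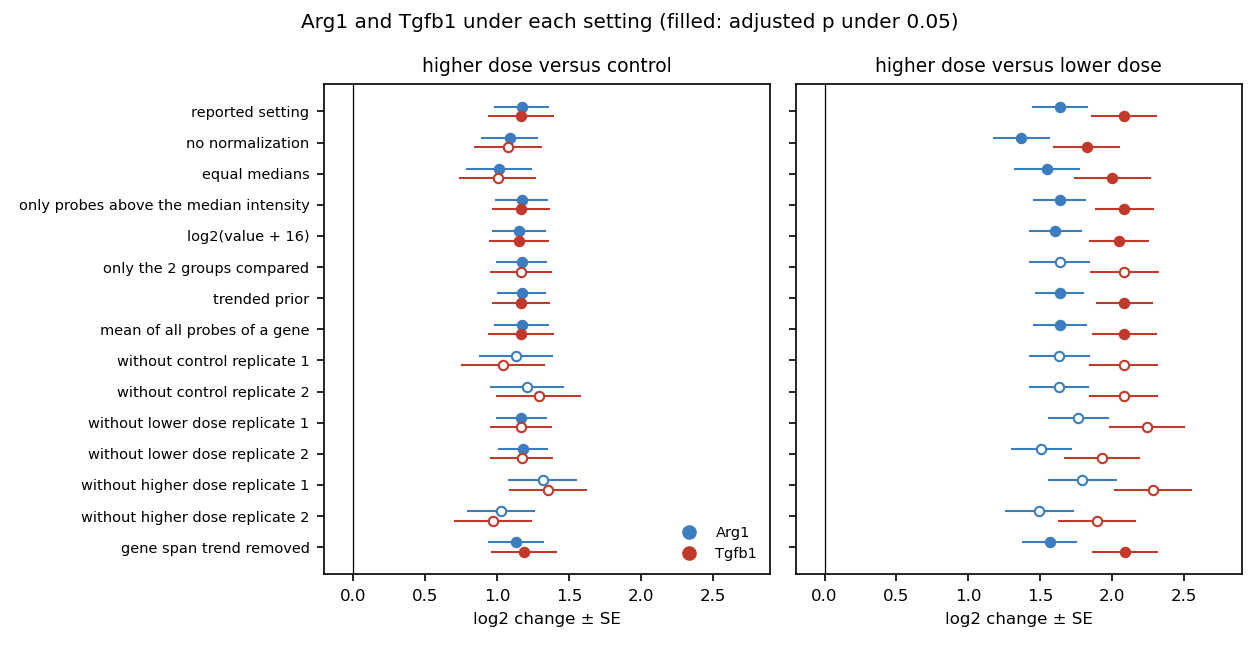
Log2 change ± SE of Arg1 and Tgfb1 under the reported setting and each alternative except the replicate block, which is not drawn. The higher dose is set against control and against the lower dose, with filled points where the adjusted p was under 0.05. Every point lies above 0, from 0.97 to 1.36 against control and from 1.37 to 2.29 against the lower dose.

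Across the 10 genes, with the brighter probe standing for Msr1, 0 passed at the lower dose, where 0.0114% of all probes did (0.00757% higher and 0.00378% lower). Of the 10, 1 (Tgfb1) had an unadjusted p under 0.05 there. At the higher dose 2 rose and 0 fell against control, and 10.6% of all probes passed in either direction, 5.55% higher and 5.06% lower. An unadjusted p under 0.05 was found there for 3 of the 10 genes and 29.1% of all probes. Between the doses 2 were higher and 0 lower, with 13.7% of all probes passing, 6.78% higher and 6.95% lower, and 4 genes and 32.1% of all probes had an unadjusted p under 0.05. Higher in both of these comparisons were Arg1 and Tgfb1 and 4.64% of all probes. Without normalization the split of all calls between the doses moved from 1792 higher and 1837 lower to 1127 higher and 2965 lower, and the median over all probes was −0.25, whereas Arg1 and Tgfb1 stood at 1.37 and 1.82. The median log2 change of the 10 genes was −0.12 at the lower dose, 0.30 at the higher dose and 0.37 between the doses, beside −0.00057, −0.014 and −0.00031 over all probes. Of the 10 genes, 7 lay above the median probe, and the shares over all probes are not matched for brightness. Since the 10 genes were chosen with earlier results known, their counts and medians beside those of all probes are a description and no test.

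The higher-dose arrays lay wholly above the controls for 5 of the 10 genes (28.8% of all probes) and wholly below for 1, Tgfbr2 (31.3%). Against the lower dose the same 5 lay above (28.5% of all probes) and Tgfbr2 below (30.7%). The lower-dose arrays lay wholly below the controls for 3, which were Arg1, Tgfb1 and Il4ra (16.6% of all probes), and wholly above for 1, Msr1 (18.5%). These orders are of normalized values. As deposited, Il4ra read 175 and 176 units in control and 182 and 201 at the lower dose, the reverse order. Il10ra as deposited read 172 and 213 units at the lower dose and 214 and 170 at the higher dose, which overlap. The combined order seen for Arg1 and Tgfb1, with the lower dose below and the higher dose above control without overlap, was looked for after their values had been seen. It held for these 2 of the 10 genes and for 4.14% of all probes.

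**Figure D3:**
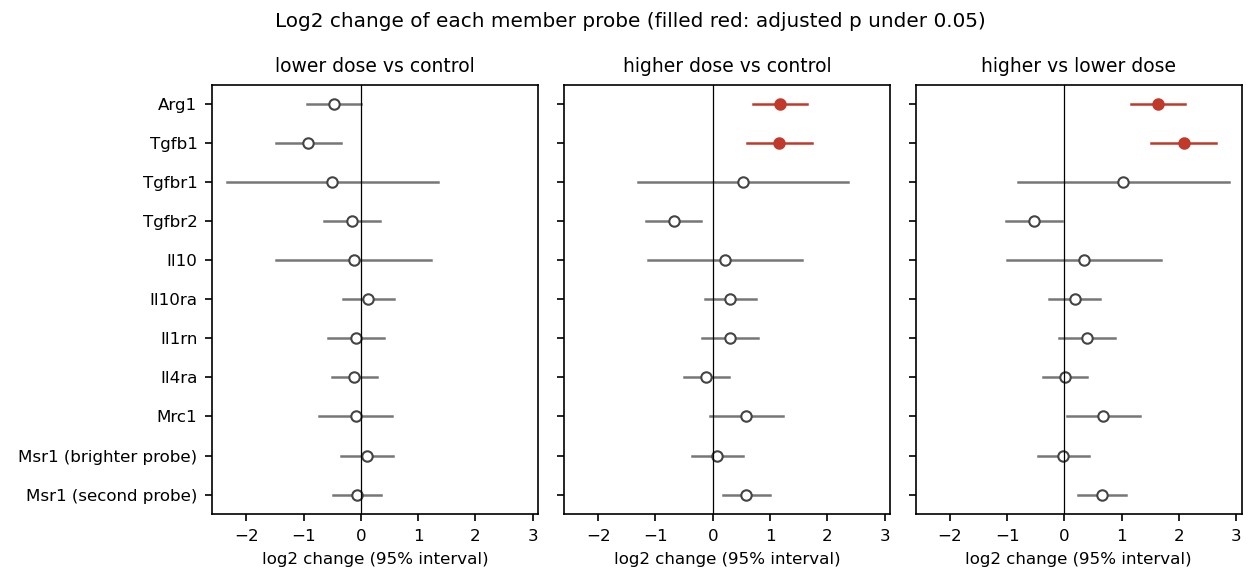
Log2 change of each probe with its 95% interval from the limma fit, for the lower dose against control, the higher dose against control and the doses against each other, with filled red points where the adjusted p was under 0.05. Arg1 and Tgfb1 are filled in the second and the third comparison, and the widest intervals are those of Il10 and of Tgfbr1, whose points are differences between readings at the floor and no fold.

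Of the receptors for TGF-β, Tgfbr2 is the type II chain that binds the ligand. Its normalized intensities were 6857 and 5554 units in control, 5199 and 5923 at the lower dose and 4162 and 3558.5 at the higher dose. Control and lower-dose arrays overlapped, and both higher-dose arrays lay below them. The log2 difference was −0.68 ± 0.19 against control (limma adjusted p = 0.0854, 95% interval −1.17 to −0.20) and −0.53 ± 0.19 against the lower dose (adjusted p = 0.131), and neither passed. It did pass against control when only the 13211 probes above the median intensity were tested (adjusted p = 0.0106), with log2(value + 16) (adjusted p = 0.0366) and with a trended prior (adjusted p = 0.0244). Between the doses it passed among probes above the median intensity (limma adjusted p = 0.0312). It did not pass there with log2(value + 16) (adjusted p = 0.0766) or a trended prior (adjusted p = 0.0539).

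Tgfbr1, the type I chain with the kinase that phosphorylates SMAD proteins, read −1 and 2 units as deposited in control, 1 and 0 at the lower dose and 4 and 0 at the higher dose. These values are at the floor of the array, so no fold is given, and they do not bear on whether the receptor was present.

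Il10, the anti-inflammatory cytokine, had normalized intensities of 106.5 and 163 units in control, 74.8 and 194 at the lower dose and 194 and 121 at the higher dose. All 3 groups overlapped, and the arrays of a group differed more than the groups did. The log2 change at the higher dose was 0.22 ± 0.53 (adjusted p = 0.829), with a 95% interval of −1.13 to 1.56 that holds changes of 2-fold in either direction. Il10ra, the chain of its receptor that binds the cytokine, had 178 and 143.5 units in control, 171 and 178 at the lower dose and 207.5 and 189 at the higher dose. Both higher-dose arrays were the highest, by a small margin, and the log2 change was 0.31 ± 0.18 (adjusted p = 0.317).

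Il1rn, the antagonist of interleukin-1, had normalized intensities of 83.5 and 77 units in control, 86.7 and 65.3 at the lower dose and 96.2 and 101 at the higher dose. The higher-dose arrays were again the highest, with a log2 change of 0.30 ± 0.19 that did not pass (adjusted p = 0.371, 95% interval −0.19 to 0.79). Il4ra, the receptor chain shared by interleukin-4 and interleukin-13, varied least over the 6 arrays, with 196 and 182 units in control, 179.8 and 168.5 at the lower dose and 185 and 166 at the higher dose. Its log2 change was −0.11 ± 0.15 at the higher dose (adjusted p = 0.686, 95% interval −0.50 to 0.28) and 0.01 ± 0.15 between the doses.

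Mrc1 encodes the mannose receptor CD206, a C-type lectin used as a marker of alternatively activated macrophages. Its normalized intensities were 254 and 351 units in control, 279.5 and 280.5 at the lower dose and 379.5 and 531 at the higher dose. Both higher-dose arrays lay above the other 4, and the log2 change of 0.59 ± 0.25 did not pass (adjusted p = 0.199). Among probes above the median intensity Mrc1 passed against control (limma adjusted p = 0.042) and between the doses (adjusted p = 0.0203).

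Msr1 encodes the class A scavenger receptor for modified lipoproteins, and its probes differed at the higher dose. The brighter probe read 455.5 and 452 units in control, 495 and 480 at the lower dose and 543 and 426 at the higher dose, so that the higher-dose arrays lay on either side of all others (log2 0.08 ± 0.18, adjusted p = 0.799). The second probe read 139.5 and 122 units in control, 129 and 120 at the lower dose and 207.5 and 185 at the higher dose, with both higher-dose arrays above the rest (0.59 ± 0.16, adjusted p = 0.0842). The second probe passed against control among probes above the median intensity (adjusted p = 0.0152). Between the doses it stood at 0.66 ± 0.16 (adjusted p = 0.0582), and it passed there among probes above the median intensity (0.00763), with log2(value + 16) (0.0334), with a trended prior (0.0411) and after the gene span trend was removed (0.0266). Which of the probes reports the transcript better was not tested.

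Gene span is given beside these results because the higher-dose change followed it. Spearman's rho between span (GRCm38.p6 annotation) and change, across 11360 probes above the median intensity, was −0.326 at the higher dose and 0.056 at the lower dose. Probes are no replicates, so no p is given. Arg1 and Tgfb1 span 12.3 and 18.1 kb, near the median of 19.3 kb over named genes, and Tgfbr2, Msr1 and Mrc1 span 87.7, 99.5 and 103 kb. After the trend was removed from each array, a step added once the data had been seen, Arg1 stood at log2 1.13 (adjusted p = 0.0244) and Tgfb1 at 1.19 (adjusted p = 0.0318) against control. Tgfbr2 stood at −0.50 (adjusted p = 0.131), Mrc1 at 0.76 (adjusted p = 0.111) and the second Msr1 probe at 0.76 (adjusted p = 0.0367).

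The surrounding pathways were described with 6 lists, chosen with earlier results of these data known and given by their counts. Over all lists 0 genes passed at the lower dose, with 1 or 2 genes of each list at an unadjusted limma p under 0.05. Without 1 array, the 2803 probes passing at the higher dose against control became 6 to 1589, and the list genes named here were not followed through such fits. Each list's share of passing genes is given beside the share over all probes, which was 10.6% at the higher dose against control and 13.7% between the doses. These shares are not matched for brightness. When only the 13211 probes above the median intensity were tested, 5524 passed against control and 6163 between the doses. Above the median probe lay 25 of 37 TGF-β, 14 of 17 interleukin-10 and 22 of 37 interleukin-4 genes. So did 19 of 26 arginine, 14 of 25 interleukin-1 and 22 of 30 scavenger receptor genes. Genes named as passing only between the doses were picked after their values were seen. Of 37 measured genes of the TGF-β pathway, 2 rose and 1 fell at the higher dose (8.11% against 10.6% of all probes, median log2 change 0.11), and 3 were higher and 1 lower between the doses (10.8% against 13.7%). Beside Tgfb1, the SMAD target Id3, an inhibitor of helix-loop-helix transcription factors, rose from 1032 and 929.7 units in control to 1899 and 2193 (log2 1.06 ± 0.16, adjusted p = 0.0258). Nrros, which encodes the membrane protein that anchors latent TGF-β1 on microglia, fell from 5587 and 6992 to 2958 and 3388 units (log2 −0.98 ± 0.19, adjusted p = 0.0385). Ligand and anchor thus differed in the direction of their change. Between the doses Nrros did not pass (adjusted p = 0.0641), and Tgfb1, Id3 and the latent TGF-β binding protein gene Ltbp4 (log2 0.69, adjusted p = 0.0441) were higher and the integrin gene Itgav (−0.80, adjusted p = 0.0351) lower.

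Of 17 measured genes of the interleukin-10 pathway, 1 rose and 1 fell at the higher dose (11.8% against 10.6% of all probes, median 0.11), and the same 2 genes passed between the doses (11.8% against 13.7%). Zfp36, whose product tristetraprolin promotes the decay of cytokine mRNAs, rose from 1756 and 2248.5 units to 3840 and 4626 (log2 1.08 ± 0.21, adjusted p = 0.0398). Etv3, a transcriptional repressor induced by interleukin-10, fell (log2 −0.96 ± 0.19, adjusted p = 0.0409). Of 37 measured genes of interleukin-4 and interleukin-13 signalling and alternative activation, 3 rose and 1 fell at the higher dose (10.8% against 10.6% of all probes, median 0.40). Beside Arg1, these were the C-type lectin gene Mgl2 (log2 1.25 ± 0.27, adjusted p = 0.0496), the PD-1 ligand gene Pdcd1lg2 (1.06 ± 0.22, adjusted p = 0.0444, and 1.16 by its other probe) and, lower, Irs2, an adaptor of the interleukin-4 receptor (−1.05 ± 0.19, adjusted p = 0.0336). Between the doses 3 were higher and 1 lower (10.8% against 13.7%), with Trem2, a lipid receptor of microglia (log2 1.21, adjusted p = 0.044), in place of Pdcd1lg2 (adjusted p = 0.0574). The count depends on the probe taken for a gene: the brighter probe of the growth factor gene Igf1 stood at log2 −0.0059 against control and its other probe at 1.35 (adjusted p = 0.0259).

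Of 26 measured genes of arginine and polyamine metabolism, 3 rose, Arg1 itself among them, and 2 fell at the higher dose (19.2% against 10.6% of all probes, median 0.13). Between the doses 6 were higher and 2 lower (30.8% against 13.7%), with Asl, Sat1 and Agmat added to the 5. The enzymes of creatine synthesis, which starts from arginine, moved in opposite directions. Gatm, which transfers the amidino group of arginine to glycine, fell from 6262 and 5211 units to 2866 and 2628 (log2 −1.06 ± 0.17, adjusted p = 0.0282). Gamt, which methylates the product to creatine, rose from 347.5 and 375.5 units to 813 and 808 (1.17 ± 0.15, adjusted p = 0.0209). Slc7a7, an exchanger of cationic amino acids, rose (0.91 ± 0.15, adjusted p = 0.029), and Ddah1, which degrades methylated arginines, fell (−0.82 ± 0.17, adjusted p = 0.043). Arg2, the mitochondrial arginase, read 41 to 61 normalized units on the 6 arrays and did not pass (0.34 ± 0.18, adjusted p = 0.284). Nos2, the competing synthase, is not named among the probes used here.

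Of 25 measured genes of the interleukin-1 family and its inhibitors, 3 rose and 2 fell at the higher dose (20.0% against 10.6% of all probes, median −0.05). Between the doses 5 were higher and 2 lower (28.0% against 13.7%), with Il1b and Irak1 added to the 5. The agonists Il1a (log2 1.04 ± 0.18, adjusted p = 0.0327) and Il18 (0.84 ± 0.17, adjusted p = 0.0418) and Casp1, the protease that matures interleukin-18 and interleukin-1β (0.74 ± 0.14, adjusted p = 0.0397), rose, while Il1rn did not pass. The receptor chain Il18rap fell (−0.90 ± 0.18, adjusted p = 0.0406), as did Il1f6, encoding interleukin-36α, which read at most 16.3 normalized units on any array (−1.46 ± 0.23, adjusted p = 0.0267). Of 30 measured scavenger and mannose receptors, 2 rose and 0 fell at the higher dose (6.67% against 10.6% of all probes, median 0.13), and the same 2 passed between the doses (6.67% against 13.7%). These were Clec4d, a C-type lectin, from 2861 and 2975 units to 17588 and 16763 (2.56 ± 0.15, adjusted p = 0.0118), and the scavenger receptor Marco, from 127 and 91 units to 369 and 362 (1.76 ± 0.21, adjusted p = 0.0204). A further probe passed at the higher dose where the brightest did not for Il1rap (log2 1.47, adjusted p = 0.0379), Irak1 (1.06, adjusted p = 0.0392) and Cd36 (1.81, adjusted p = 0.0318). Il1rap and Irak1 each had yet another probe, which did not pass (log2 −0.18, adjusted p = 0.794, and −0.47, adjusted p = 0.183).

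**Figure D4:**
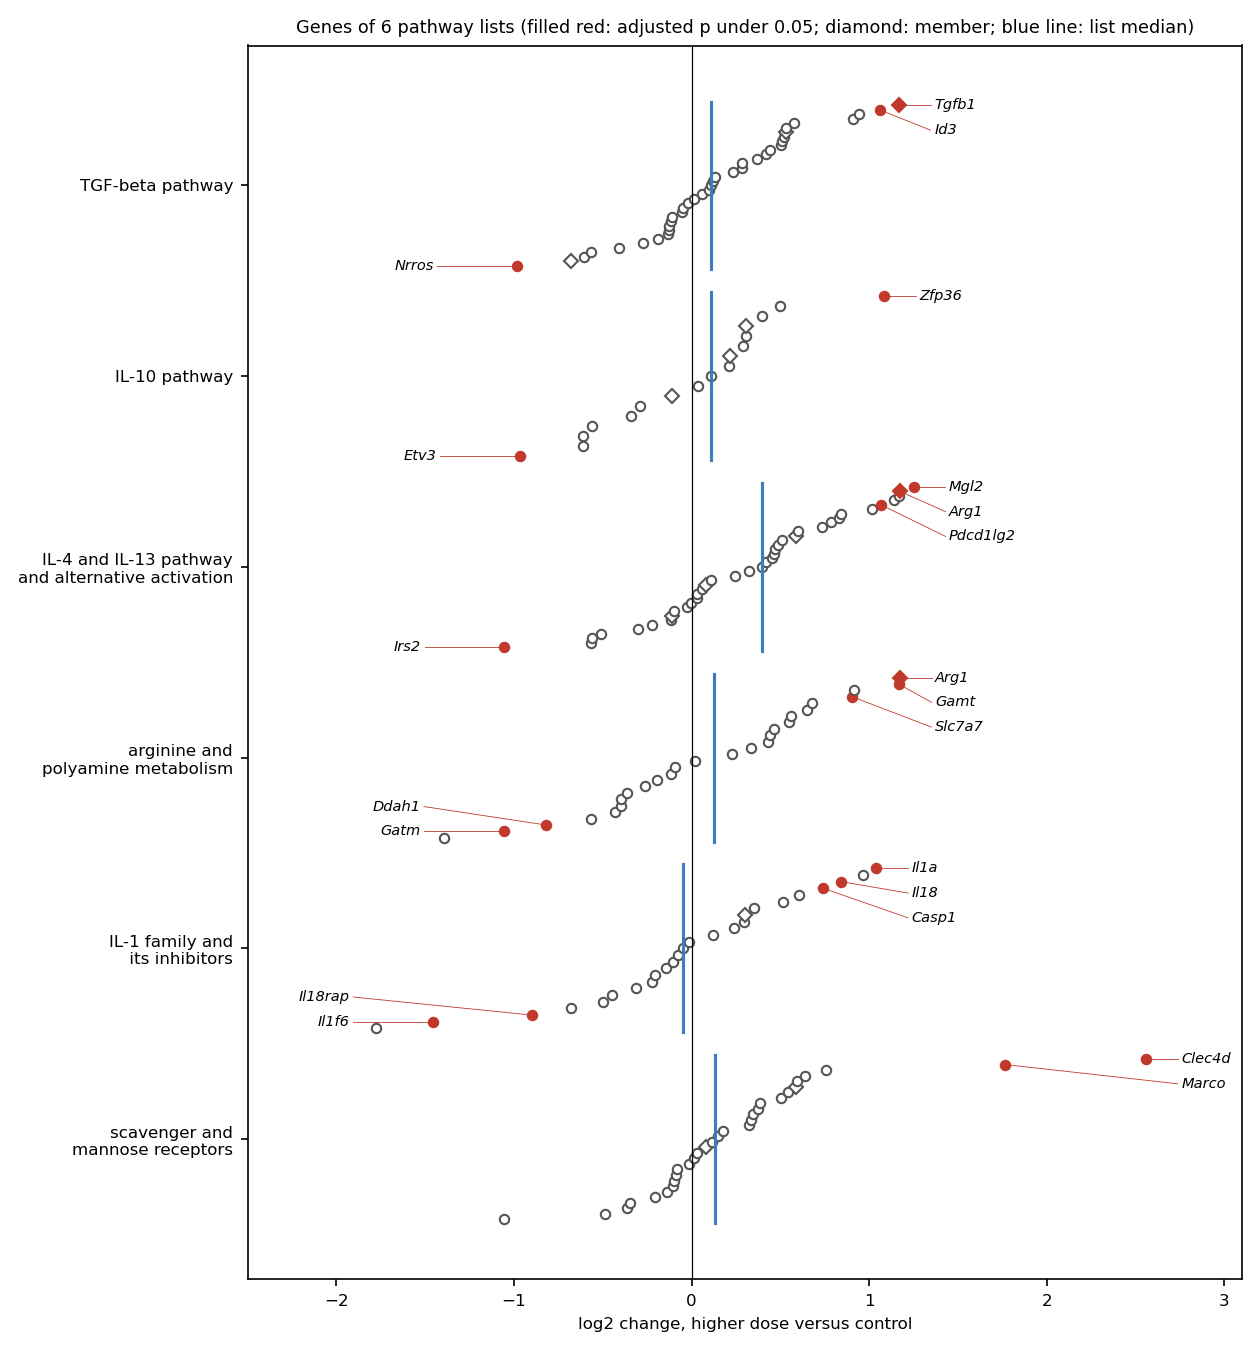
Log2 change at the higher dose against control of every measured gene of the 6 lists, ordered by size within each list, with filled red symbols where the adjusted p was under 0.05, diamonds for the 10 genes described here and a blue line at each list's median. The called genes lie on both sides of 0 in every list except the scavenger and mannose receptors, and the interleukin-4 list has the highest median, 0.40.

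The genes whose profile over the 6 arrays was most like those of Arg1 and Tgfb1 were taken by Pearson's r of log2 intensity among 10286 named genes above the median intensity, as a description. All points share the same 6 arrays in 3 groups, and a high r is common: 453 genes reached 0.95 with Arg1 and 206 with Tgfb1. Closest to Arg1 were the chemokine gene Cxcl10, Pbx4, the galectin gene Lgals9, Rtp4 and the receptor gene Gpr84 (r 0.995 to 0.996). Lgals9 read 1448 and 1702 units in control, 1110 and 897.5 at the lower dose and 3708 and 4155 at the higher dose. Closest to Tgfb1 were Zfp36 (r = 0.998), Pef1, Prrc2a, Gsto1 and Ssbp4. Likeness here is of shape and not of size, since the higher-dose log2 change was 0.18 for Gsto1 and 1.08 for Zfp36. Arg1 and Tgfb1 correlated with each other at r = 0.984, which placed Tgfb1 at rank 61 among the genes most like Arg1 and Arg1 at rank 31 among those most like Tgfb1.

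**Figure D5:**
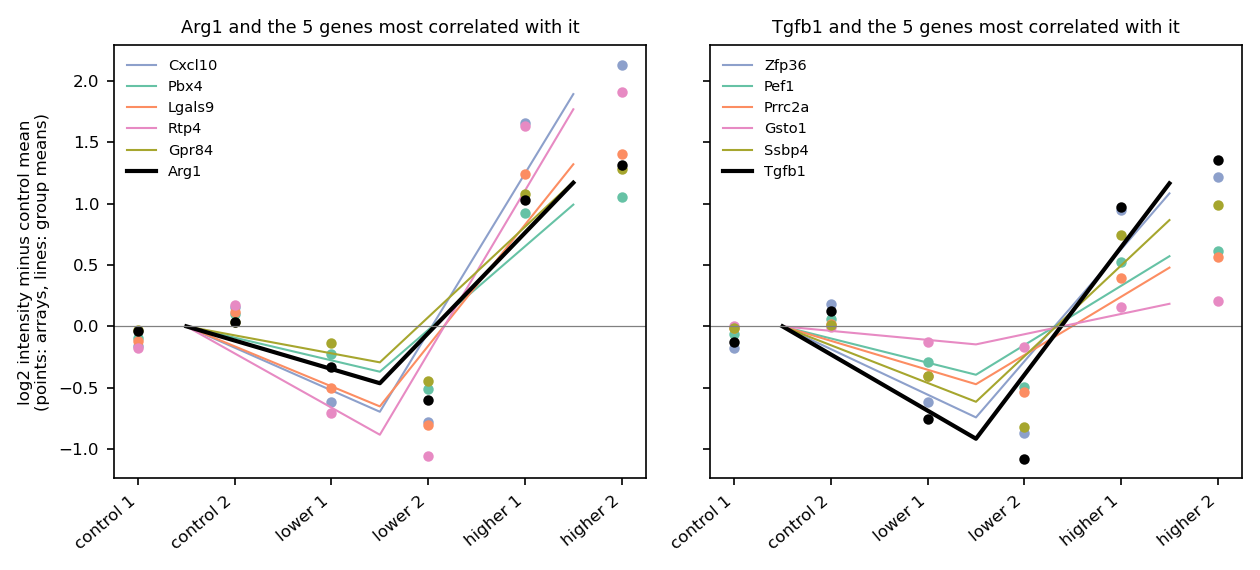
Log2 intensity relative to the control mean on each of the 6 arrays (points) and as group means (lines) for Arg1 or Tgfb1, in black, and the 5 genes most correlated with each. All lines fall at the lower dose and rise at the higher dose, with higher-dose means from 0.99 (Pbx4) to 1.89 (Cxcl10) beside Arg1 and from 0.18 (Gsto1) to 1.08 (Zfp36) beside Tgfb1.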

How the data were processed

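Cy5-labelled cDNA was hybridised to Phalanx mouse arrays, per the labels' protocols. The deposited files give intensity per probe, in linear units with a few values below 0, which plain background subtraction leaves. RMA is named in the submitters' processing notes, but its output is on a log scale and alike between arrays, so the values were treated as unnormalized. Flags and slides were not used here.

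Arrays were quantile-normalized, values under 1 set to 1 and log2 taken. All 6 arrays were fitted in limma 3.58.1 (R 4.3.3; 1 mean per group, 3 residual degrees of freedom, eBayes, two-sided, Benjamini-Hochberg over 26423 probes, threshold 0.05). Intervals use the fit's moderated degrees of freedom. The fit was run on simulated data with independent noise and changes, in brighter probes only, larger than those of Arg1 and Tgfb1. Recovery of changes of their size was not tested. Symbols come from the array's old platform annotation, which names 20377 probes and leaves 6046 unnamed here, updated through RefSeq (18213 exact, 2126 by synonym, 38 kept). The brightest probe stood for a gene. Members and lists were chosen with earlier results of these data known. Named from each list were up to 3 non-member genes per direction by smallest p among those passing at the higher dose against control, the 5 genes most correlated with Arg1 and with Tgfb1, and Arg2 and Nos2. Ms4a1, Cd3e, Kdr, Emcn, Igf1, Il1rap, Irak1, Cd36 and genes passing only between the doses were named after their values were seen. Figures were drawn with matplotlib 3.10.9.

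Alternatives changed the normalization, dim-probe filter, offset, prior, probe summary, samples fitted and block, and left out each array. Removal of the gene span trend was added after seeing the data.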

Additional observations from a re-analysis of the deposited data

How the results depend on the processing

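Arg1 and Tgfb1 kept a positive log2 change at the higher dose against control under all 15 alternatives. The number of the 10 genes passing against control was 1 on values as deposited, 1 with equal medians and 1 with only the groups compared (Arg1 in each), 4 among probes above the median intensity (with Tgfbr2 and Mrc1 added), and 0 to 1 without 1 array. Tgfb1 stood at 1.08, 1.00 and 1.17 in the first 3 of these, short of the threshold, and at 0.97 to 1.36 without 1 array, and Arg1 at 1.03 to 1.32. The number passing against control was 3 with log2(value + 16) and 3 with a trended prior (with Tgfbr2 added in each). Between the doses the number was 4 among probes above the median intensity, 0 with only the groups compared and 0 without any 1 array. At the lower dose it was 0 under every alternative. A fit without 1 array has 2 residual degrees of freedom, and a group's lone array is then assumed to vary like the other groups.

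The deviations of same-numbered arrays correlated at r = 0.313 between control and higher dose, 0.0326 between control and lower dose and −0.226 between the doses, and the labels name no shared source, so the numbers were not taken to pair samples. With the replicate block 0 of the 10 genes passed against control, with unchanged log2 changes of 1.17 for Arg1 (adjusted p = 0.0616) and 1.17 for Tgfb1 (adjusted p = 0.0745), and the count over all probes went from 2803 to 11. Between the doses the block kept both calls, and the count went from 3629 to 1395. The block moved no other call of the 10 genes.

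Over all probes, the count of 2803 against control became 5524 among probes above the median intensity, 4764 with log2(value + 16), 5000 with a trended prior, 1584 with only the groups compared and 6 to 1589 without 1 array. The lower-dose count of 3 ranged from 0 to 9.

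Signs that turned belonged only to values that did not pass in the reported fit. On values as deposited, where the median of all probes was 0.22 at the lower dose, the lower-dose values were 0.012 for Tgfbr2, 0.12 for Il10, 0.18 for Il1rn, 0.12 for Il4ra, 0.13 for Mrc1 and 0.18 for the second Msr1 probe, and the values between the doses were −0.005 for Il10ra and −0.18 for Il4ra. With equal medians Msr1 stood at −0.039 against control. Between the doses, Msr1 stood at 0.32 with the mean of its probes and 0.17 after the span trend was removed, and Il4ra stood at 0.001 against control after that removal. Without 1 array, lower-dose values ran from −0.82 to 0.56 for Il10, −0.029 to 0.28 for Il10ra, −0.29 to 0.11 for Il1rn, −0.32 to 0.14 for Mrc1 and −0.17 to 0.029 for the second Msr1 probe. Tgfbr1 reads at the floor, so its fitted values have no order and are no fold: −0.50 to 1.502 at the higher dose against control and 0.0 to 2.07 between the doses. Higher-dose values against control ran from −0.125 to 0.558 for Il10 and −0.094 to 0.26 for Msr1. Between the doses they ran from −0.34 to 1.03 for Il10, −0.070 to 0.084 for Il4ra and −0.20 to 0.16 for Msr1. The cause of these changes was not tested. Tgfbr1, Il10 and Il1rn have no value among probes above the median intensity.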
